A study of Homo sapiens with 6 samples.

Results

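The 38 genes described here are those of the amino acid stress response that is run by the transcription factor ATF4, and they were taken by gene symbol from the 28395 genes of the deposited table. They are 6 transcription factors, 5 stress effectors and feedback genes, 8 enzymes of amino acid and one-carbon synthesis, 7 amino acid transporters, and 12 genes for tRNA synthetases and tRNA export. They were measured by poly(A) RNA-seq in HCC827, an EGFR-mutant human lung adenocarcinoma cell line, in 3 libraries of cells given the vehicle DMSO and 3 libraries of cells given erlotinib, an EGFR tyrosine kinase inhibitor, at 1 μM for 24 h. The question of the comparison was which transcripts differ once EGFR signalling is blocked. Libraries are called DMSO 1, 2 and 3 and erlotinib 4, 5 and 6, as the table numbers them, and held between 20760204 and 24641819 reads. HCC827 is 1 line from 1 tumour, and while the study's methods speak in general of independent repeats, neither they nor the labels say whether the 3 libraries of a treatment came from separate cultures, so a p-value here measures only the spread between these libraries.

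When amino acids run short, uncharged tRNA activates the kinase GCN2, encoded by EIF2AK4, which phosphorylates the translation factor eIF2α. Most protein synthesis then slows, while the ATF4 mRNA is translated more, so ATF4 protein is set largely by translation and need not follow its mRNA. ATF4 pairs with C/EBP proteins on a composite DNA element and switches on genes that make, import and charge amino acids. Growth factor signalling through mTORC1 is also known to raise ATF4 protein in dividing cells, where serine and one-carbon enzymes are among its targets.

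Levels are given as signal, the number of uniquely mapped reads of a gene divided by 1 size factor for its library. Of the 38 members 37 averaged a signal of 10 or more and were tested, each by limma on log2(signal + 1) with p-values adjusted by the Benjamini-Hochberg method over the 14215 genes tested, at a threshold of 0.05. With erlotinib 28 of the 37 members fell (75.7%), 2 rose (5.41%) and 7 did not pass the test. Among all 14215 tested genes 35.4% fell and 35.3% rose on the deposited scale, a balance that depends on the scaling. The median log2 difference was -0.67 over the members and 0.02 over all tested genes. Of the members 9 fell by at least 1 log2 unit, as did 1540 of all 14215 tested genes. In a bulk sample, fewer cells of a kind and less RNA per cell cannot be told apart.

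The members were mostly strongly expressed genes, and strongly expressed genes fell more often. Of the 5014 tested genes whose signal averaged 1000 or more, 50.9% fell and 28.5% rose, with a median log2 difference of -0.19. The 27 members above that level had 24 falls, 0 rises and a median log2 difference of -0.69. Summed over the 38 members, the signal was 210813, 195712 and 204312 in DMSO 1, 2 and 3 and 112627, 116351 and 116697 in erlotinib 4, 5 and 6, which was 0.855% to 0.902% of all signal in the DMSO libraries and 0.556% to 0.575% in the erlotinib libraries. The sums of the treatments did not overlap. SLC7A5 alone was the most abundant member in this sum.

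The scale of the comparison moved some small differences. When each library was scaled to its total count, the median log2 difference of all genes went from 0.02 to 0.19, and the rising share of all calls went from 49.9% to 60.9%. On that scale 25 members fell and 5 rose, while 27.8% of all tested genes fell and 43.3% rose. Relative to the median of all genes, the median of the members was -0.69 on the deposited scale and -0.68 on the total-count scale. The members that stood on the other side of 0 or of the threshold after that scaling are named with their values below.

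ATF4 and C/EBP proteins bind a composite element whose usual core is TGATGNAA, where N is any base, so both strands of the RefSeq promoters of assembly GRCh38.p14 were searched for it from 250 bases before to 50 after each start. Promoters were given for 31 of the 38 members. The core was present in 14 of these 31 genes (45.2%), in 4.46% of all 27305 genes with a promoter and in 2.77% of the 11130 tested genes with one. The narrower core TGATGCAA, every match of which is also a match of TGATGNAA, was present in 10 of the 31 genes (32.3%) and in 1.08% of all genes. Some genes have several starts, and counted by promoter the wider core was in 14 of 50 member promoters (28.0%) and in 3.62% of all 35116. The members were chosen as genes of the ATF4 response, so their higher share is no independent finding. The windows below are shown because their match lies before a RefSeq start site, which for ASNS, CEBPG, GARS and SLC1A5 is an internal start downstream of the first base of the locus, with the match in capitals, read on the strand of the gene and cut to 30 bases or fewer where an annotated exon of any transcript reaches them.
AARS, chr16:70289675-70289704, minus strand, 187 bases before the start: ttttctcgcagTTGCATCAgccaagttaga
ASNS, chr7:97872458-97872487, minus strand, 68 bases before an internal start: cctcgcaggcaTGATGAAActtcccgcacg
CEBPG, chr19:33374045-33374104, plus strand, 42 bases before an internal start: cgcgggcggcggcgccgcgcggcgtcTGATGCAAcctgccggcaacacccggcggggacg
CHAC1, chr15:40953251-40953280, plus strand, 209 bases before: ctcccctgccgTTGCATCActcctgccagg
GARS, chr7:30594834-30594863, plus strand, 33 bases before an internal start: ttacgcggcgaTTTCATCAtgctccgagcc
IARS, chr9:92293698-92293721, minus strand, 13 bases before: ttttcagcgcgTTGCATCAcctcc
SLC1A5, chr19:46784893-46784922, minus strand, 97 bases before an internal start: gaggaagtggcTGATGCAAgctgtccaggg

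Of the 13 tested members that carried the wider core, 12 fell and 0 rose, with a median log2 difference of -0.69. Of the 17 tested members whose promoter was given and lacked it, 11 fell and 1 rose, with a median of -0.50, and the difference between these groups was not tested. SLC1A4 was the one carrier of the core that did not pass the test, and its match spans an internal start, beginning 7 bases before it. Outside the members 295 tested genes carried it, of which 38.6% rose and 33.2% fell, with a median log2 difference of 0.02. Of the 11 synthetase and export genes with a promoter 7 carried it, as did 4 of 6 transporters, while 1 of 4 synthesis enzymes, 1 of 5 stress effectors and 1 of 5 transcription factors did. A match is a string of letters in a window and no measure of binding, and DDIT3, TRIB3, VLDLR and DDIT4 had no match in these 300 bases.

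Among the transcription factors, the ATF4 transcript itself did not pass the test. The signal of ATF4 was 7149, 8447 and 7441 in DMSO 1, 2 and 3 and 7488, 6935 and 7557 in erlotinib 4, 5 and 6. The ranges overlapped, and the log2 difference of -0.07 had a 95% interval of -0.21 to 0.08 with an adjusted p of 0.415 in limma. Scaled to the total count, the difference was 0.11. Per kilobase of transcript, ATF4 ranked 4 among the members in the DMSO libraries and 2 in the erlotinib libraries. Such ranks are approximate, for the reasons given with the levels per kilobase below.

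NUPR1, a small chromatin-associated stress protein, had the largest rise of any member. Its signal was 22.7, 25.1 and 18.2 in DMSO 1, 2 and 3 and 211, 249 and 209 in erlotinib 4, 5 and 6. All erlotinib libraries stood far above all DMSO libraries, with a ratio of means of 10.2 and a log2 difference of 3.29 ± 0.23 (SE, n = 3 and 3, limma adjusted p = 7.85e-11). The DMSO values rested on 20, 27 and 17 reads. DDIT3, which encodes CHOP, a partner of C/EBP proteins that is linked to cell death under lasting stress, rose from 321, 345 and 240 in the DMSO libraries to 497, 415 and 458 in the erlotinib libraries, without overlap. Its log2 difference was 0.61 ± 0.14 (SE, limma adjusted p = 0.000489).

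DDIT3 lies on the minus strand of chromosome 12 and its last 65 bases, chr12:57516588-57516652 in GRCh38, overlap the end of MARS on the plus strand. No source says whether reads were counted by strand, so reads in those bases could not be assigned to either gene. The mean signal over all 6 libraries was 1975 for MARS and 379 for DDIT3, and MARS moved the other way, with a log2 difference of -0.66.

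The remaining factors did not move together. CEBPG, a C/EBP family dimer partner of ATF4, fell from 1944, 2084 and 1838 to 1191, 1276 and 1196, a log2 difference of -0.68 ± 0.08 (SE, limma adjusted p = 1.27e-07). ATF5, the closest relative of ATF4, fell from 951, 785 and 864 to 563, 617 and 658, by 0.50 ± 0.10 on the log2 scale. For both genes the treatments did not overlap. ATF5 shares 599 bases with NUP62, a nuclear pore gene with a higher signal that had a log2 difference of -0.54. CEBPB, a C/EBP factor of inflammation and differentiation, was 1184, 1120 and 1184 with DMSO and 1241, 1311 and 1257 with erlotinib. Its libraries did not overlap, but the log2 difference of 0.13 did not pass the test (limma adjusted p = 0.155). It did when libraries were scaled to their total count, with a log2 difference of 0.31. CEBPB shares 1487 bases with CEBPB-AS1, a noncoding RNA gene with a log2 difference of 1.76. Mean signals were 20.3 for CEBPB-AS1 and 1216 for CEBPB.

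**Figure D1:**
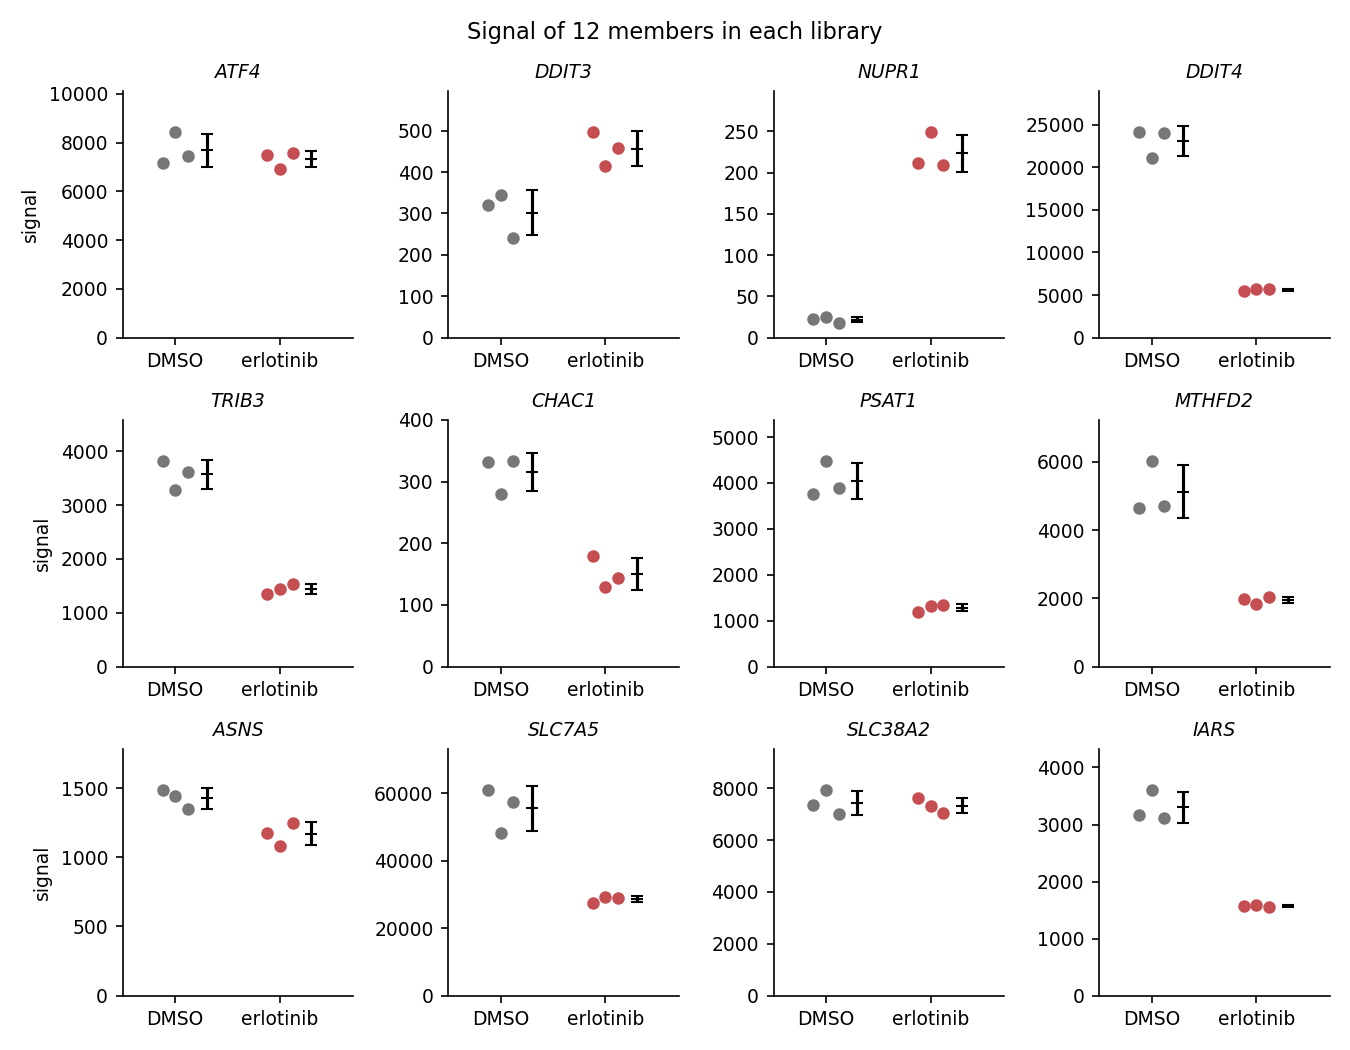
Signal (reads divided by the library's size factor, linear axis from 0) of 12 members in 3 DMSO libraries (grey points) and 3 erlotinib libraries (red points), with the mean and SD in black. ATF4 and SLC38A2 overlap between treatments, DDIT3 and NUPR1 lie higher in every erlotinib library, and the other 8 genes lie lower in every erlotinib library.

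Of the 5 stress effectors and feedback genes 4 fell, each by more than 1 log2 unit, and the fifth did not pass the test. Of all tested genes 35.4% fell. DDIT4 encodes REDD1, an inhibitor of mTORC1 made under hypoxia and amino acid lack, and it had the largest fall of any member. Its signal went from 24178, 21087 and 24015 in DMSO 1, 2 and 3 to 5482, 5733 and 5664 in erlotinib 4, 5 and 6. The DMSO mean was 4.10 times the erlotinib mean, and the log2 difference was -2.03 ± 0.07 (SE, limma adjusted p = 3.59e-16).

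TRIB3, a pseudokinase that feeds back on ATF4 and CHOP, was 3823, 3286 and 3605 in the DMSO libraries and 1345, 1437 and 1537 in the erlotinib libraries. It fell by 1.31 ± 0.08 on the log2 scale. VLDLR, a lipoprotein receptor, fell by the same amount, from 701, 752 and 725 to 330, 262 and 285. CHAC1, which cleaves glutathione, fell from 332, 280 and 334 to 180, 130 and 143, by 1.07 ± 0.16. In none of these 4 genes did any erlotinib library reach the lowest DMSO library.

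SESN2 encodes a leucine sensor that restrains mTORC1. Its signal was 605, 550 and 657 with DMSO and 529, 567 and 528 with erlotinib, and the treatments overlapped. The log2 difference of -0.15 had a 95% interval of -0.37 to 0.06 (limma adjusted p = 0.184). Without DMSO 2 it was -0.22 with an adjusted p of 0.0419, so that library decided the call, and on the total-count scale it was 0.02.

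The 3 enzymes that turn a glycolytic intermediate into serine did not move alike. PHGDH, which catalyses the first and committed step, was 538, 559 and 663 with DMSO and 700, 656 and 691 with erlotinib. Erlotinib 5 lay below DMSO 3, so the ranges overlapped, and the log2 difference was 0.22 with a limma adjusted p of 0.0562. It passed the test with TMM factors, in edgeR and without DMSO 3, and on the total-count scale the log2 difference was 0.40 with an adjusted p of 0.00239. PSAT1, the next enzyme, fell from 3750, 4485 and 3884 to 1194, 1311 and 1340, by 1.65 ± 0.08 on the log2 scale (limma adjusted p = 1.54e-13). PSPH, the last enzyme, fell from 6850, 6710 and 6576 to 2977, 3095 and 2860, by 1.17 ± 0.06. For PSAT1 and PSPH the lowest DMSO library stood far above the highest erlotinib library.

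Mitochondrial one-carbon enzymes fell as well. MTHFD2, which oxidizes the folate-bound carbon unit, went from 4651, 6035 and 4705 to 1978, 1850 and 2042, a log2 difference of -1.38 ± 0.09 (SE, limma adjusted p = 1.04e-11). SHMT2, which splits serine into glycine and that unit, went from 5978, 5228 and 5864 to 3748, 3922 and 3764, a log2 difference of -0.58 ± 0.07. In both genes every erlotinib library was lower than every DMSO library. The last 1324 bases of the MTHFD2 locus overlap SLC4A5, a bicarbonate carrier gene with a mean signal of 358 against 3543 for MTHFD2 and a log2 difference of -0.90. ALDH1L2, which releases the carbon as CO2, was hardly expressed, with 16 to 43 reads a library, and its log2 difference of 0.36 had a 95% interval of -0.50 to 1.23.

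ASNS and PYCR1 had small falls. ASNS, which makes asparagine and is a standard reporter of this response, was 1488, 1441 and 1345 with DMSO and 1172, 1084 and 1250 with erlotinib, a log2 difference of -0.29 ± 0.08 (SE, limma adjusted p = 0.00408). On the total-count scale it was -0.11 with an adjusted p of 0.248. PYCR1, a mitochondrial enzyme of proline synthesis, was 2067, 1922 and 2224 with DMSO and 1616, 1880 and 1832 with erlotinib, without overlap. Its log2 difference was -0.22 (limma adjusted p = 0.0186), which became -0.17 with an adjusted p of 0.0996 without DMSO 3, -0.16 with 0.147 without erlotinib 4, and -0.04 on the total-count scale.

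**Figure D2:**
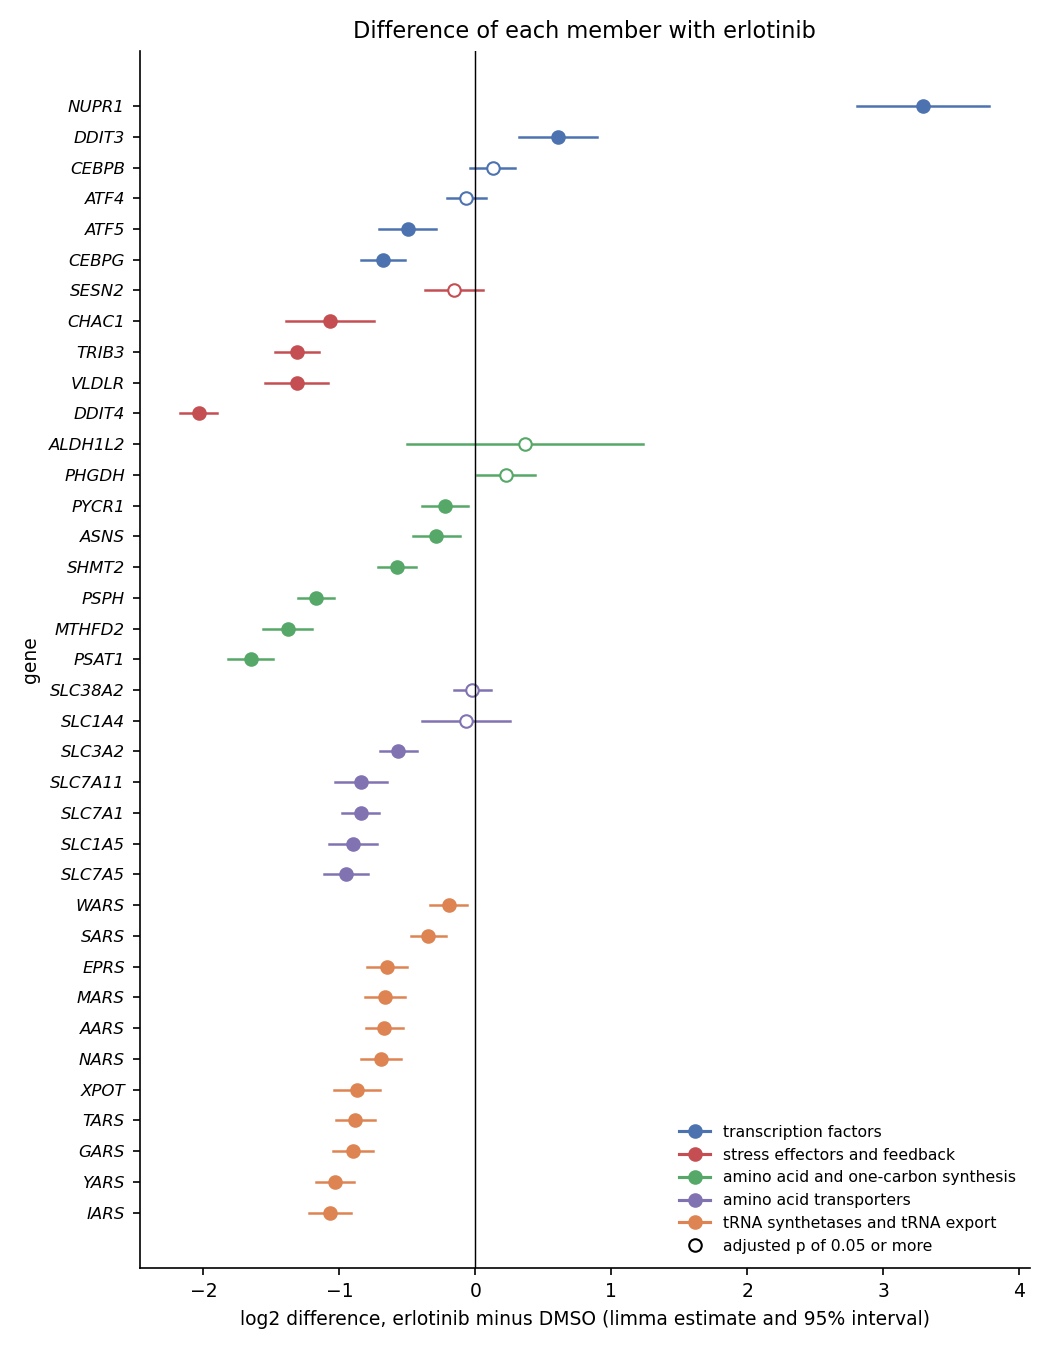
Log2 difference of the signal (+ 1) between erlotinib and DMSO for the 37 tested members, from limma with the 95% interval, coloured by role. Filled points passed the test and open points did not. All tested tRNA synthetase and export genes lie below 0, NUPR1 lies at 3.29 and DDIT4 at -2.03.

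Transporters made up the largest part of the members' summed signal in every library, and 5 of 7 fell, beside 35.4% of all tested genes. SLC7A5, the light chain of the LAT1 carrier that brings in leucine and other large neutral amino acids, was 61028, 48154 and 57351 in the DMSO libraries and 27502, 29297 and 29076 in the erlotinib libraries. DMSO 2 was the lowest of its group and still above every erlotinib library, and the log2 difference was -0.95 ± 0.08 (SE, limma adjusted p = 7.24e-10). SLC3A2, the heavy chain that LAT1 shares with several other carriers, fell less, from 14754, 12824 and 14218 to 9286, 9436 and 9422, by 0.57 ± 0.06. Per length of transcript, the ratio of SLC7A5 to SLC3A2 was 1.71, 1.55 and 1.67 in the DMSO libraries and 1.23, 1.28 and 1.28 in the erlotinib libraries. This ratio did not overlap between the treatments.

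SLC7A11, which pairs with the same heavy chain and exchanges cystine for glutamate, was far less abundant and fell from 1222, 1237 and 1034 to 635, 643 and 664, by 0.84 ± 0.09 on the log2 scale. SLC1A5, the glutamine carrier ASCT2, fell from 5741, 4335 and 5365 to 2673, 2691 and 2860, by 0.90 ± 0.08. SLC7A1, a carrier of arginine and lysine, fell from 6598, 6803 and 6791 to 3501, 3834 and 3926, by 0.84 ± 0.07. None of these 3 overlapped between treatments.

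The remaining transporters, SLC38A2 and SLC1A4, did not pass the test. SLC38A2, the carrier SNAT2 that is induced by amino acid lack, was 7367, 7947 and 7022 with DMSO and 7620, 7318 and 7052 with erlotinib, and the libraries of both treatments were mixed in order. Its log2 difference was -0.02 with a 95% interval of -0.16 to 0.12 (limma adjusted p = 0.782), and on the total-count scale it was 0.16 with an adjusted p of 0.0352. SLC1A4, the related carrier ASCT1, was 193, 208 and 240 with DMSO and 194, 241 and 179 with erlotinib. These also overlapped, with a log2 difference of -0.07 and a 95% interval of -0.39 to 0.26.

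**Figure D3:**
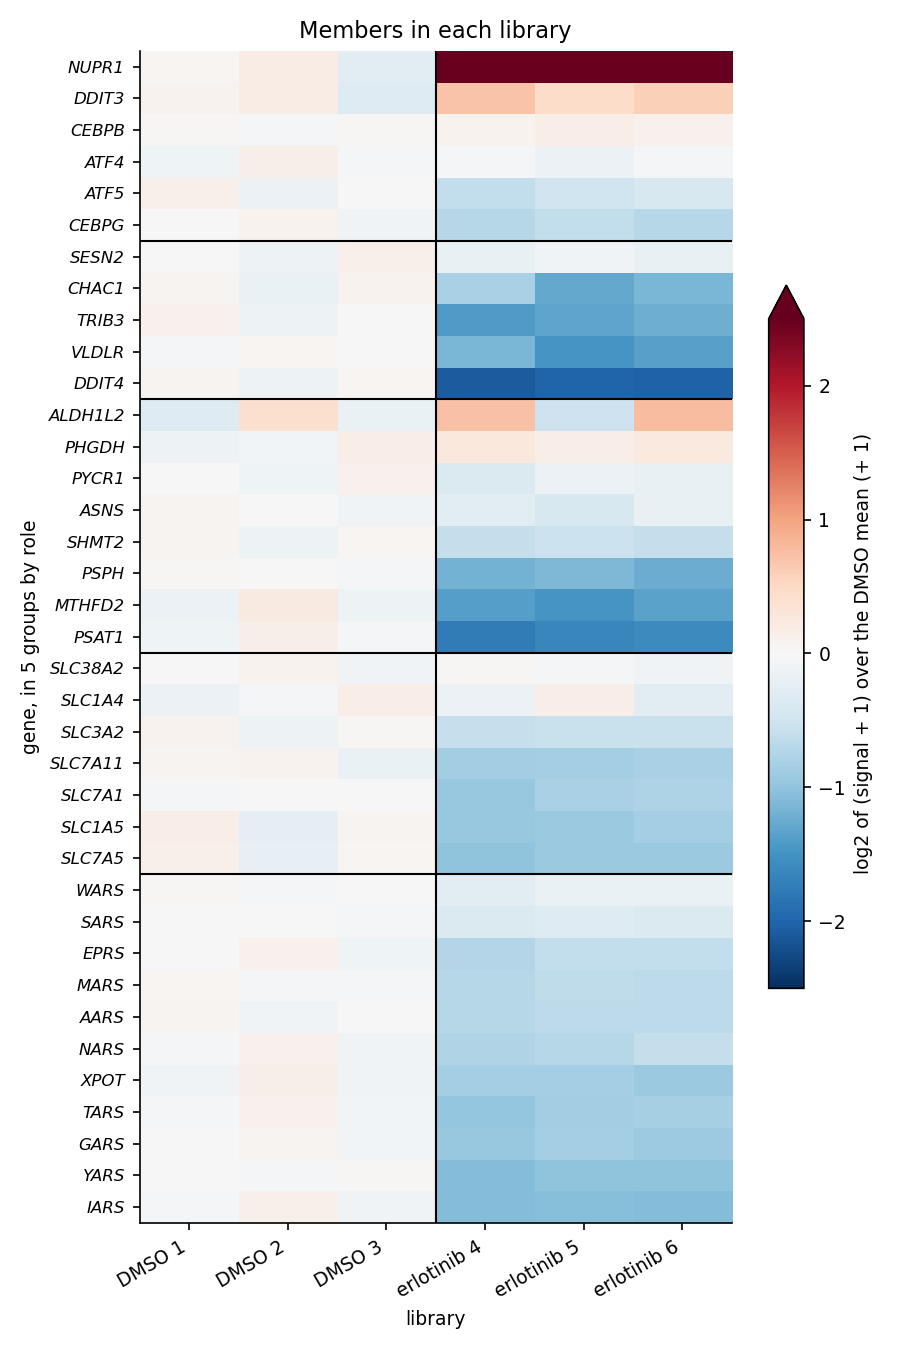
Each tested member in each library, coloured by the log2 of its signal (+ 1) over the mean of the DMSO libraries (+ 1), in 5 groups by role. Colours stop at 2.5, which NUPR1 exceeds. The 3 erlotinib libraries resemble each other in every group, and ALDH1L2, with 16 to 43 reads a library, is the most uneven row.

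The synthetases, which load each amino acid onto its tRNA, formed the most uniform group. All 11 tested genes of the group fell, the median log2 difference was -0.69, and in each of them every erlotinib library was lower than every DMSO library. Of all tested genes 35.4% fell, and 36.9% had every erlotinib library below every DMSO library. Among tested genes with a mean signal of 1000 or more, 50.9% fell. IARS, for isoleucine, fell the most of the group, from 3173, 3611 and 3118 to 1565, 1588 and 1546, by 1.07 ± 0.07 on the log2 scale (limma adjusted p = 5.11e-11). YARS, for tyrosine, fell from 3986, 3899 and 4059 to 1877, 1978 and 1993, by 1.03 ± 0.07. The DMSO mean was 2.11 times the erlotinib mean for IARS and 2.04 times for YARS. YARS shares 797 bases at its start with S100PBP. Mean signals were 522 for S100PBP and 2965 for YARS, and the log2 difference of S100PBP was 0.01.

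Next came GARS for glycine, which fell by 0.90 from 3700, 3919 and 3550 to 1932, 2055 and 1993, and TARS for threonine, which fell by 0.88 from 4578, 5054 and 4495 to 2419, 2590 and 2653. XPOT, the exportin that carries tRNA out of the nucleus, fell by 0.87, from 2020, 2391 and 2029 to 1195, 1188 and 1124. NARS for asparagine, AARS for alanine, MARS for methionine and EPRS for glutamate and proline lay between -0.69 and -0.65. AARS was 6329, 5717 and 6136 with DMSO and 3717, 3861 and 3846 with erlotinib, and MARS was 2521, 2356 and 2388 with DMSO and 1483, 1560 and 1540 with erlotinib.

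SARS and WARS had the smallest falls of the group. SARS, for serine, went from 5523, 5550 and 5385 to 4247, 4395 and 4298, a log2 difference of -0.35 ± 0.06 (SE, limma adjusted p = 4.42e-05). WARS, for tryptophan, which is also induced by interferon, went from 3993, 3861 and 3963 to 3292, 3518 and 3522, a log2 difference of -0.19 with a limma adjusted p of 0.0117. Without erlotinib 4 that difference was -0.16 with an adjusted p of 0.0838, and on the total-count scale it was -0.01. The order within the group rests on intervals that overlap for most neighbours, for example -1.23 to -0.92 for IARS and -1.17 to -0.89 for YARS. Those of EPRS, at -0.79 to -0.50, and SARS, at -0.48 to -0.22, did not overlap.

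CARS, for cysteine, is listed at 0 in all 6 libraries and was not tested. Its canonical transcript matched a second place in the hg38 reference, on the alternate contig chr11_KI270831v1_alt, and reads that fit both places are not uniquely mapped. No other member had such a copy under a search that asked for at least 50% of the transcript at 97% identity or more. VARS, the synthetase for valine, was also listed at 0 and also had copies on alternate contigs. The part of these copies in the 0 values was not tested, and no level can be given for CARS.

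Compared per kilobase of transcript, member levels spanned a wide range and their order shifted at the top. Lengths are those of 1 canonical transcript per gene, and the mapping did not splice reads across introns. The order of different genes is therefore approximate. DDIT4 and SLC7A5 led in the DMSO libraries, at 13241 ± 997 and 12184 ± 1455 signal per kilobase (mean and SD, n = 3), which overlapped, and were followed by SLC3A2 at 7391 ± 528 and ATF4 at 5412 ± 480. In the erlotinib libraries SLC7A5 led at 6283 ± 215, ahead of ATF4 at 5163 ± 240 and SLC3A2 at 4977 ± 43.9, which lay within the SD of ATF4, and DDIT4 came next at 3226 ± 74.2. PSPH led the synthesis enzymes at 3400 ± 69.3 with DMSO, while SHMT2 led them at 1767 ± 44.7 with erlotinib. SARS led the synthetases with both treatments, at 2866 ± 46.3 and 2254 ± 39.4. At the other end, NUPR1 went from 4.16 ± 0.66 to 42.2 ± 4.31, and ALDH1L2 stayed the lowest detected member per kilobase at 3.10 ± 0.90 and 4.26 ± 1.84. With DMSO the SD ranges of these genes overlapped, and the mean signal before division by length was lower for NUPR1.

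**Figure D4:**
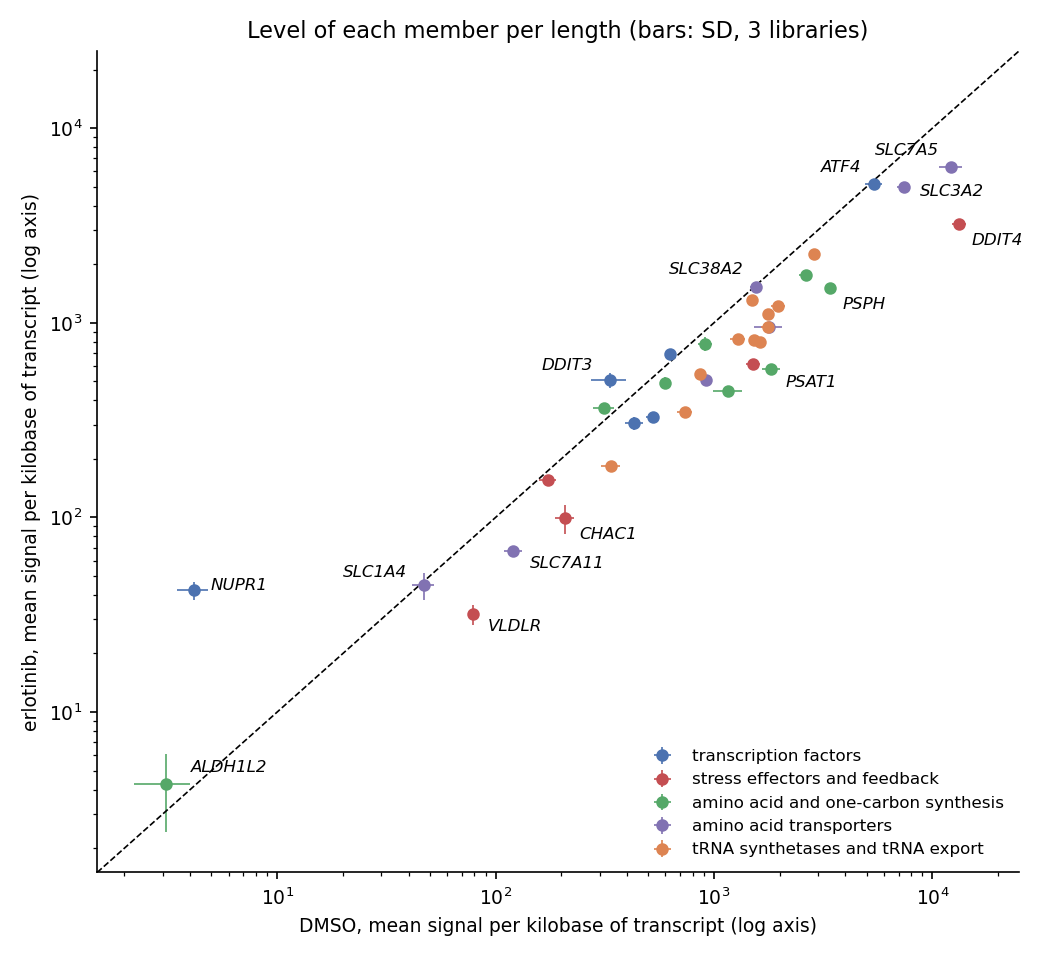
Mean signal per kilobase of canonical transcript in the DMSO (x axis) and erlotinib (y axis) libraries, both on log axes, for the 37 members with reads, with SD bars over 3 libraries. The dashed line marks equal levels. ATF4 and SLC38A2 lie on it, NUPR1 lies far above it, and most members lie below it.

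Counted without a fitted test, 28 members had every erlotinib library below every DMSO library and 3 (NUPR1, DDIT3 and CEBPB) had every one above. Over all tested genes these shares were 36.9% below and 36.7% above. The 28 without overlap below are the 28 that fell in limma.

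The genes that act on eIF2α, upstream of ATF4, had 9 falls (56.2%) and 3 rises (18.8%) among 16 tested. Counts of this and the following lists are to be read beside the 35.4% of all tested genes that fell and the 35.3% that rose. EIF2AK4, the kinase GCN2, fell from 1058, 983 and 1156 to 582, 617 and 742, by 0.72 ± 0.10 on the log2 scale, and its activator GCN1 fell by 0.68. EIF2AK3, the kinase PERK of the endoplasmic reticulum, and EIF2AK1, the haem-regulated kinase, had log2 differences of -0.01 and 0.05 and did not pass the test, while EIF2AK2, the kinase PKR that senses double-stranded RNA, fell by 0.44. EIF2S1, which encodes eIF2α, and EIF2B3, a subunit of its exchange factor, fell with log2 differences of -1.42 and -1.49. The rises were those of PPP1R15A, the inducible phosphatase subunit GADD34 and itself a target of the response, at 0.58, and of OMA1 at 0.55 and DELE1 at 0.44, which relay mitochondrial stress to the kinase encoded by EIF2AK1.

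Other known targets of the stress response that are not members went mostly the other way, with 10 rises and 4 falls among 15 tested and a median log2 difference of 0.58. CREBRF, a regulator of the unfolded protein response, rose by 2.52, the secreted stress cytokine GDF15 by 1.44 and the factor ATF3 by 1.07. GDF15 was 154, 123 and 181 with DMSO and 415, 397 and 422 with erlotinib. GPT2, which makes alanine, EIF4EBP1, a repressor of translation, and MOCOS, which sulfurates the molybdenum cofactor, fell with log2 differences of -1.02, -0.92 and -0.87. FGF21 and CBS were listed at 0 in all libraries, and CBS has a second copy of its whole transcript in hg38, so no level can be given for it.

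Several paralogs differed from the member they resemble. Among the relatives of CEBPB and CEBPG, CEBPA rose by 2.06 and CEBPD by 1.78, the latter from 991, 814 and 950 to 3073, 3157 and 3190. SESN3 rose by 2.21 and TRIB1 by 0.79, beside SESN2 at -0.15 and TRIB3 at -1.31. CHAC2, a constitutive relative of CHAC1, fell by 2.90. SHMT1 and MTHFD1, the cytosolic counterparts of the mitochondrial pathway, fell with log2 differences of -1.60 and -1.12. Over the list 10 of 18 tested paralogs fell and 4 rose.

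Among synthetases outside the members, most cytosolic ones fell. Of 11 tested cytosolic synthetases and partners of the synthetase complex 10 fell, with a median log2 difference of -0.80, and EEF1E1 and FARSB were at -2.01 and -1.53. QARS, for glutamine, rose by 0.65, from 324, 268 and 298 to 479, 453 and 467. Of 16 tested mitochondrial synthetases 8 fell and 1 rose, with a median log2 difference of -0.27 and MARS2 at -1.77. The lists were not tested against each other or against the members. Of 8 genes of tRNA export and processing 7 fell, among them XPO5 at -1.13 and XPO1 at -1.25, both relatives of XPOT, and the methyltransferase NSUN2 at -1.45.

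Amino acid transporters outside the members had 6 rises (40%) and 2 falls (13.3%) among 15 tested. SLC43A2, SLC7A7 and SLC6A14 rose by 1.86, 1.57 and 1.30, although SLC43A2 has a copy on an alternate contig and its level is uncertain. SLC7A7, another light chain that pairs with SLC3A2, was 138, 120 and 131 with DMSO and 357, 405 and 400 with erlotinib. SLC38A1, the closest relative of SLC38A2, fell by 0.81. Of 21 other genes of serine, folate, proline and amino acid metabolism 12 fell (57.1%) and 7 rose (33.3%). TYMS, which makes thymidylate, and ODC1, which starts polyamine synthesis, fell with log2 differences of -3.18 and -1.84, while ASS1, which joins citrulline to aspartate, rose by 1.95. In the glycine cleavage system AMT rose by 2.62. GLDC and GCSH, both at low signal and with near-identical copies elsewhere in hg38, fell with log2 differences of -2.26 and -1.05. GLDC had 17, 15 and 22 reads with DMSO and 0, 8 and 7 with erlotinib. Its mean signal was 18.9 with DMSO and 4.82 with erlotinib, so it met the signal filter only through its DMSO libraries. The size of its fall is therefore uncertain.

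The endoplasmic reticulum arm of ATF6 and XBP1, which shares inducers with ATF4, had 13 falls and 2 rises among 18 tested genes. SDF2L1, MANF and PDIA6, all of protein folding in that compartment, fell with log2 differences of -1.59, -1.31 and -0.95, while ATF6 rose by 0.80 and DNAJB9 by 0.47. Among 21 genes of mTORC1 and amino acid sensing 7 rose (33.3%) and 5 fell (23.8%), neither share above the 35.3% and 35.4% of all tested genes. DEPTOR, an inhibitor of mTOR, rose by 3.08, CASTOR2 by 1.92 and TSC2 by 0.79, while RPS6KB1, RPTOR and RHEB fell, at -0.85, -0.57 and -0.50, of which RHEB has near-identical copies and is uncertain. DEPTOR was 43.1, 31.6 and 37.5 with DMSO and 339, 282 and 344 with erlotinib, whereas DDIT4, a member that also acts against mTORC1, fell.

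**Figure D5:**
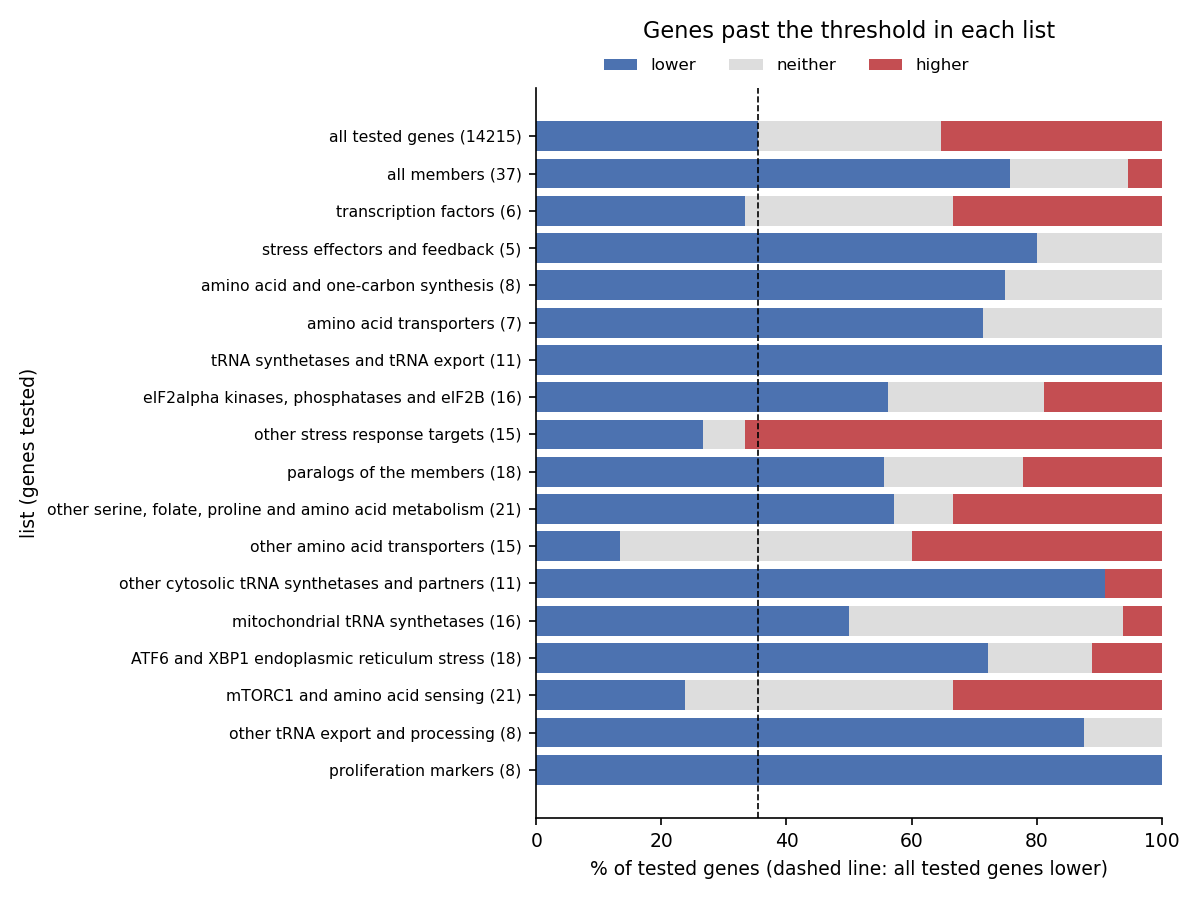
Share of the tested genes of each list that fell (blue), rose (red) or did neither (grey) in limma at an adjusted p under 0.05, with the number tested in brackets. The dashed line marks the 35.4% of all tested genes that fell. All 11 synthetase and export members and all 8 proliferation markers fell, while 10 of 15 other stress response targets rose.

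Markers of proliferation moved with the members. All 8 fell, with log2 differences from -3.03 to -2.33, and their summed signal was 46381, 50268 and 45867 in the DMSO libraries and 7994, 7737 and 7740 in the erlotinib libraries, with TOP2A the most abundant. Their part in the falls of the members was not tested. Epithelial markers were high in all libraries, for example EPCAM at 9852 ± 235 with DMSO and 9485 ± 281 with erlotinib (mean and SD, n = 3). Their summed signal was 286814, 254717 and 276894 with DMSO and 185948, 190140 and 191721 with erlotinib, KRT7 was the most abundant of the 6, and 4 of the 6 fell.

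Markers of fibroblasts, leukocytes and endothelium were at low signal apart from COL1A1 and CD68, which rose with log2 differences of 1.47 and 0.23. VWF, an endothelial marker at low signal, also rose, at 2.74. The whole endothelial list summed to no more than 34.0 in any DMSO library, so the size of that rise is uncertain. The other endothelial marker tested had a log2 difference of -0.55 and did not pass the test. Ciliated cell markers and NAPSA were detected and rose. The fibroblast list summed to 73.7, 75.2 and 109 with DMSO and 260, 223 and 215 with erlotinib, nearly all of it COL1A1, while COL1A2 and DCN had at most 1.86 and 2.77 in any library. The leukocyte list summed to 2788, 2795 and 3166 and to 3229, 3552 and 3475, of which CD68 was the most abundant, and PTPRC had at most 5.62. The endothelial list summed to 34.0, 15.8 and 24.6 and to 58.1, 46.5 and 48.7, with VWF the most abundant and CLDN5 at 0 throughout. Markers of ciliated cells summed to 436, 514 and 369 and to 2291, 2090 and 2891, with DNAH5 the most abundant. All 6 rose, and in 5 of them every erlotinib library stood above every DMSO library. Alveolar and secretory markers summed to 1052, 905 and 1027 and to 3637, 3693 and 3931, almost all NAPSA, with SCGB1A1 at 0 and SFTPC at no more than 1.87. The part of the ciliated and alveolar markers in the differences of the members was not tested.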

How the data were processed

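Total RNA was enriched with oligo(dT) beads and sequenced as paired ends on an Illumina platform. Per the labels and the study's methods, the authors mapped reads to GRCh38 with Bowtie2 2.3.4, which does not splice reads across introns, counted the uniquely mapped ones by gene in featureCounts 1.6.3, and used DESeq2 1.18.1. The deposited values are a signal, counts divided by 1 size factor per library (0.882 to 1.08). All values gave whole reads within 0.01 reads (100%), 20858083, 24641819 and 21172884 for DMSO and 21944007, 20760204 and 21678395 for erlotinib. By chi-square, replicates differed beyond sampling noise (4.32 or more per degree of freedom) and none were merged.

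Genes whose signal averaged 10 or more were tested two-sided in limma 3.58.1 (R 4.3.3) on log2(signal + 1), with a variance trend, over all 6 libraries. A fold change on that scale is understated for low genes. Alternatives were other pseudocounts, filters, scalings and thresholds, each library left out, DESeq2 1.42.0, and edgeR 4.0.16, whose quasi-likelihood test on recovered reads called 5085 genes higher and 4941 lower. Copies of transcripts were searched with minimap2 in hg38, and lengths and exons came from GENCODE. The table's gene symbols for synthetases are older than those of RefSeq (AARS for AARS1).

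The members, the 11 companion lists and the marker lists were chosen with earlier results of these data known. Beside all members, the text names up to 3 largest rises and 3 largest falls of each companion list among genes past the threshold whose treatments do not overlap, and partners, paralogs or kinases of members. Some genes that this rule would name are not reported here.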

Additional observations from a re-analysis of the deposited data

How the results depend on the processing

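Of the log2 differences of the 37 tested members under the 14 alternatives that refit or rescale the data, 497 kept their direction and side of the threshold, 6 lost the call, 6 gained it with the same sign and 9 changed sign, of which 1 also gained the call (SLC38A2), and 28 members kept both under all 14. A threshold of 0.01, the remaining alternative, left 26 members lower and 2 higher. Scaling to the total count had the widest effect: 5 members rose in place of 2, the median of the members was -0.49, and 4 members with negative differences on the deposited scale had positive ones, ATF4 at 0.11, SESN2 at 0.025 and SLC1A4 at 0.11, none of which passed the test, and SLC38A2 at 0.16, which did. The cause was not tested beyond the change of scale itself, which moved the median of all genes. Over all alternatives 25 to 29 members fell. Left out 1 library at a time, the range was 26 to 29 members lower and 2 to 3 higher, and 4702 to 5096 genes lower and 4585 to 5094 higher. Differences near 0 changed sign when 1 library was left out. ATF4 lay between -0.115 and 0.0055, positive without DMSO 2, SLC38A2 between -0.063 and 0.027, positive without DMSO 2 or erlotinib 6, and SLC1A4 between -0.191 and 0.022, positive without DMSO 3 or erlotinib 6. No paired analysis was possible because the columns of the erlotinib libraries are numbered 4 to 6 and share no number with those of DMSO. Depth limits ALDH1L2, with 16 to 43 reads a library, and NUPR1 in the DMSO libraries.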
